A study of Mus musculus with 4 samples.

Results

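The 33 genes described here code for enzymes and regulators of sterol and fatty acid synthesis, and they were examined in nuclei of the mouse hippocampus. Genes were taken by symbol from the deposited matrices, and all 33 were found. The rule names pathway members rather than levels or fold changes, but the list was drawn up with earlier results of these data known. They fall into 6 groups along the pathway: 7 genes of the mevalonate and isoprenoid steps, 3 of the squalene and lanosterol steps, 9 of the post-lanosterol steps, 6 of sterol sensing and transport, 4 of fatty acid synthesis and 4 of fatty acid desaturation. Nuclei came from wild-type (WT) mice and from littermates that carry the R87C variant on 1 copy of Cyfip2 (Cyfip2+/R87C, called KI for knock-in), which the study uses as a West syndrome model on a C57BL/6N background. The mice were adults of the oldest age that the study examined. Cyfip2 codes for a subunit of a complex that regulates actin, and the KI mice carry 1 altered copy of it in every cell. Each genotype had 2 mice with 1 library each, made from the frozen hippocampi of both hemispheres. The treatment label of KI replicate 2 reads R88C while its protocol field reads R87C, and its genotype label and title place it in KI.

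Sterols are built from acetyl-CoA through mevalonate, isoprenoids, squalene and lanosterol, and the enzymes of these steps are switched on together by SREBP transcription factors when sterols in the endoplasmic reticulum run low. The adult brain makes its own cholesterol, because lipoproteins of the blood do not cross the blood-brain barrier, and astrocytes and oligodendrocytes are known as its main producers. Fatty acid synthesis starts from the same acetyl-CoA and is driven mainly by the product of Srebf1, whereas sterol synthesis is driven mainly by that of Srebf2.

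The 4 libraries held 12665 to 16055 barcodes and 73009975 to 80913580 UMIs (unique molecular identifiers, each counted as 1 transcript), and 11932 to 14927 nuclei per library were kept. Each pair of libraries shared 40 to 67 barcodes. Malat1, a nuclear RNA, took 8.71% and 8.90% of UMIs in WT and 12.2% and 13.7% in KI. Over all nuclei, a member had 680 to 44698 UMIs, with a median of 3043. Levels are given as CPM, the UMIs of a gene per 1000000 UMIs of the same library and cell class, and a gene is compared only with itself, since counts in nuclei also depend on gene length.

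Nuclei were sorted into classes by marker genes that include no member. The 9 classes compared held 10589 dentate gyrus (DG) granule neurons, 6352 CA1 and 3178 CA3 pyramidal neurons, 2360 subicular or cortical excitatory neurons, 3028 inhibitory neurons, 1370 astrocytes, 5276 oligodendrocytes, 912 oligodendrocyte precursor cells (OPC) and 763 microglia. The 8 oligodendrocyte markers summed to 5605 to 6542 CPM in oligodendrocytes and 145 to 303 CPM in astrocytes. The WT libraries held 462 and 518 astrocytes and the KI libraries 182 and 208, so their KI values rest on fewer UMIs.

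By CPM, most members were highest in astrocytes. Of the 33 genes, 26 had their highest mean level over 4 libraries there, 4 in oligodendrocytes (Lbr, Ebp, Scap and Acaca), 2 in microglia (Insig2 and Acly) and 1 in OPC (Elovl6). For 9 genes all 4 libraries of the highest class lay above all 4 of the next class, and 6 of these were highest in astrocytes. In a fit of 8 classes with the library as a block, 27 members were higher in astrocytes than in the mean of the other 7 classes and 0 were lower, with a median log2 difference of 1.28 over all 33. In this contrast 46.0% of 16823 genes passed at 0.05 (edgeR, quasi-likelihood test, Benjamini-Hochberg adjusted p), 24.2% higher and 21.8% lower, and the median of all genes was -0.04. All 4 desaturation genes, all 3 squalene and lanosterol genes and 6 of 7 mevalonate genes were among the 27. Counts per nucleus can order the classes otherwise, since nuclei held a median of 2077.5 UMIs in astrocytes and 8287.5 in CA3. Per nucleus Srebf2 and Insig2 were highest in CA3 in each library, and Fdft1 and Cyp51 in subicular or cortical neurons. Fads1, Fads2, Msmo1, Scd1, Scd2 and Srebf1 were highest in astrocytes in each library by this measure too.

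**Figure D1:**
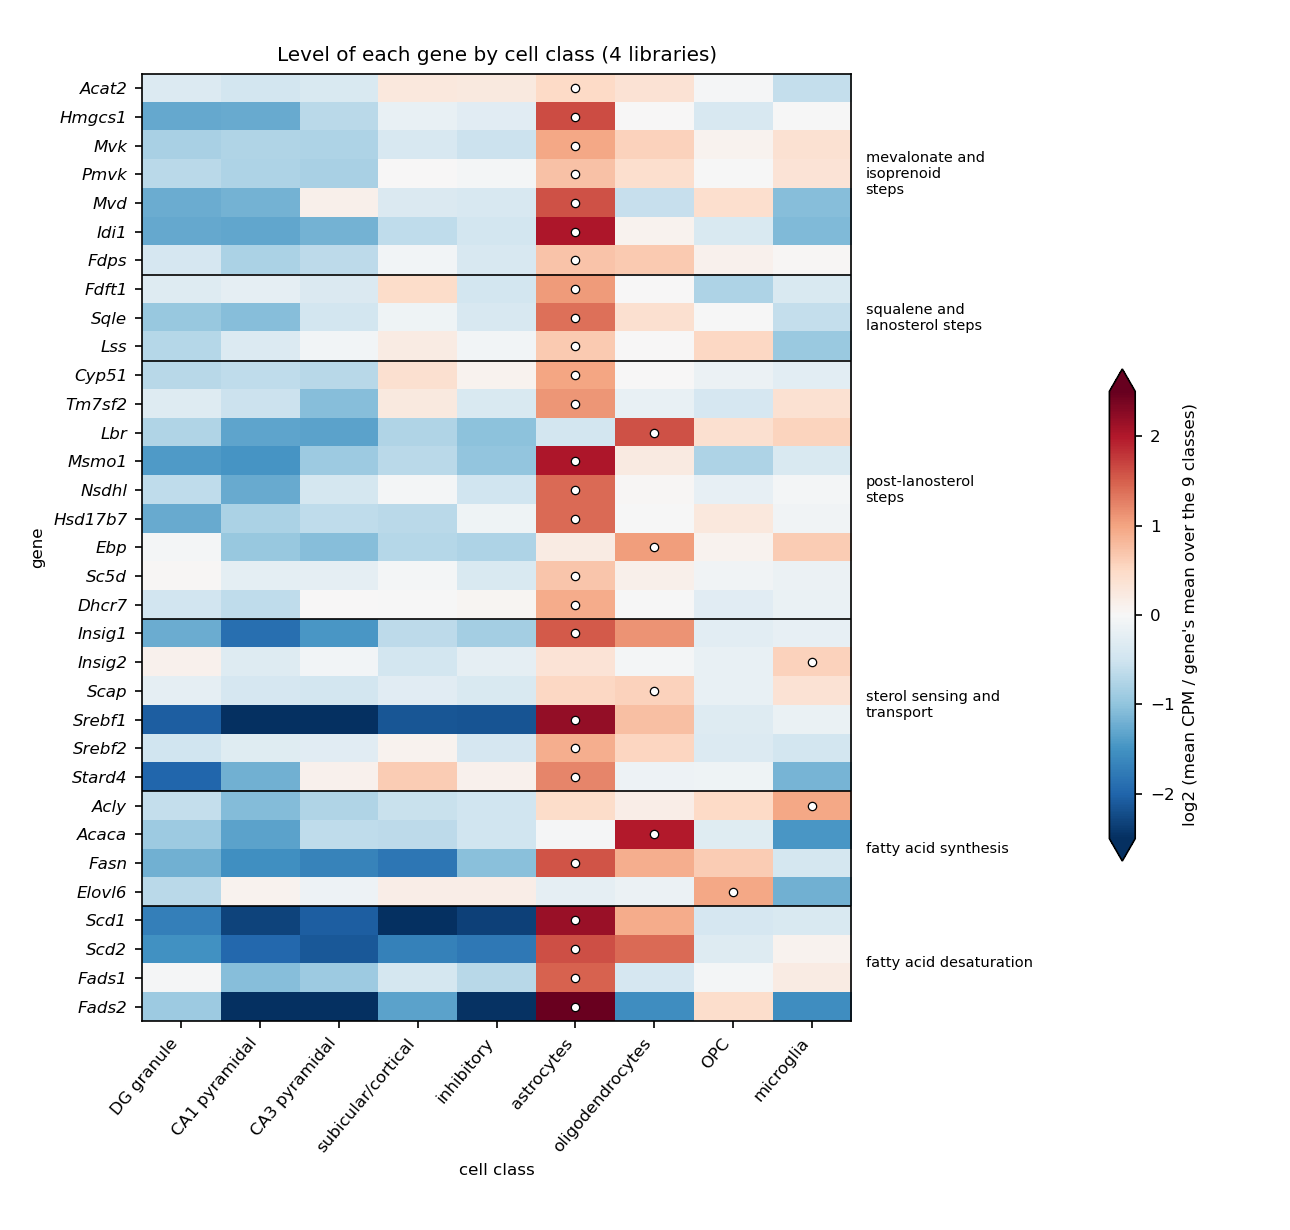
Mean CPM of each gene in 9 cell classes over 4 libraries, as log2 of the ratio to the gene's own mean over the classes (colour; values past the ends of the scale take its end colours). White circles mark the class with the highest level, which was astrocytes for 26 of the 33 genes.

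The largest astrocyte difference was that of Fads2, which codes for the desaturase that opens the path to long polyunsaturated fatty acids. Fads2 had 194, 187, 191 and 188 CPM in the astrocytes of WT replicates 1 and 2 and KI replicates 1 and 2, against 5.64 to 6.62 CPM in inhibitory neurons. All astrocyte libraries lay above those of the other classes compared, the next being OPC at 35.1 to 66.1 CPM, and the log2 difference from the other classes was 3.89 (SE 0.15). Srebf1 followed with a log2 difference of 3.22 (SE 0.22), although its astrocyte level varied from 37.9 to 131 CPM between libraries. Msmo1, which codes for a sterol demethylase, had 188 and 196 CPM in WT astrocytes and 116 and 120 CPM in KI astrocytes, against 9.43 to 18.4 CPM in CA1 pyramidal neurons. Hmgcs1, which codes for the synthase at the entry of the mevalonate pathway, had 79.6 to 111 CPM in astrocytes and 24.6 to 40.2 CPM in oligodendrocytes, the next class. The libraries of these classes did not overlap for either gene.

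Oligodendrocytes had another profile. There 15 members were higher than in the mean of the other 7 classes and 2 were lower. Of 16823 genes 51.5% passed, 26.9% higher and 24.6% lower. The 17 of 33 members that passed thus lie near the share of all genes, but most of them were higher. Acaca, which codes for the carboxylase that commits acetyl-CoA to fatty acid synthesis, had a log2 difference of 2.502 (SE 0.14) over the 4 libraries and of 1.62 in the WT libraries alone. Scd2, the main stearoyl-CoA desaturase gene of the brain, was at 2.15 (SE 0.07), with 565 to 929 CPM in oligodendrocytes and 57.5 to 82.5 CPM in CA1 pyramidal neurons. In the WT libraries alone Scd2 was at 2.13, above Acaca. Lbr, whose product reduces a sterol double bond and anchors the nuclear envelope, had 68.3 to 93.1 CPM in oligodendrocytes and was the only post-lanosterol gene together with Ebp to peak there. The 2 genes below the other classes were Fads2 (log2 difference -0.70, SE 0.23) and Fads1 (-0.36, SE 0.10). Both desaturase genes, Fads2 and Scd2, were thus above the other classes in astrocytes, and of the pair only Scd2 was in oligodendrocytes. Without WT replicate 2 the Fads2 difference in oligodendrocytes did not pass (-0.59, adjusted p 0.0826), nor did that of Fads1 with library totals (-0.25, adjusted p 0.0579).

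OPC had 5 members above the other classes and 0 below, where 26.5% of 16823 genes passed, among them Fads2 (1.52, SE 0.24) and Elovl6 (1.13, SE 0.12), the elongase gene of saturated and monounsaturated chains. Elovl6 had 113 to 176 CPM in OPC. In microglia 1 member was higher, Acly (0.75, SE 0.21), which codes for the enzyme that makes cytosolic acetyl-CoA, and 4 were lower. There 38.8% of 16823 genes passed (16.0% higher and 22.7% lower), so both counts lie under the shares of all genes. The call for Acly was lost without WT replicate 1 (0.66, adjusted p 0.0609), without KI replicate 1 (0.57, adjusted p 0.0970) and with classes from clusters (0.45, adjusted p 0.102). The most negative of the 4 were Acaca (-1.82, SE 0.29) and Elovl6 (-1.81, SE 0.22). Scaled by library totals, the median of the members moved from -0.51 to 0.09, from 7 positive and 26 negative to 19 and 14, and over all genes 5506 passed higher and 1612 lower in place of 2694 and 3825. With neurons as 1 side (DG granule, CA1, CA3 and inhibitory) and the 4 glial classes as the other, 21 members were lower and 1 was higher in neurons, where 66.6% of 16823 genes passed. Srebf1 (-2.502, SE 0.24) and Scd2 (-2.07, SE 0.06) were lowest against glia, and the gene higher in neurons was Elovl6 (0.43, SE 0.09). Scaled by library totals instead of TMM factors, the median of all genes in that contrast moved from 0.08 to -0.36, and Elovl6 moved to -0.01. The median of the members moved from -0.53, with 7 positive, to -0.98, with 0 positive.

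In 4 smaller classes only levels were taken. Of the 33 members, 3 had at least 30 UMIs in committed OPC, 0 in endothelial cells, 1 in mural cells and 3 in fibroblasts. Scd2 had 240 ± 36.6 CPM (SD, n = 4) in 107 committed OPC, 272 ± 65.6 CPM (SD, n = 4) in 92 mural cells and 293 ± 86.8 CPM (SD, n = 4) in 281 fibroblasts. In the committed OPC, Acaca had 56 UMIs in all and Elovl6 46.

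Promoter sequences of the members on which the genotype comparisons turn are shown here, to describe motifs in genes that moved. RefSeq windows of 300 bases on GRCm38.p6, from 250 bases before to 50 after the start, were at hand for 26 of the 33 genes. Sequences run 5′ to 3′ on the strand of the gene, and capitals mark letters of the motifs CCAAT (bound by NF-Y), GGGCGG (bound by Sp1) and TCACNCCAC (a sterol response element), each sought on both strands. Hmgcs1 is at chr13:119690101-119690400 (+), Msmo1 at chr8:64733529-64733828 (-), Nsdhl at chrX:72918271-72918570 (+), Srebf2 at chr15:82147019-82147318 (+), Fads2 at chr19:10101454-10101753 (-), Insig1 at chr5:28071162-28071461 (+), Acaca at chr11:84195188-84195487 (+) and Elovl6 at chr3:129532136-129532435 (+).
Hmgcs1: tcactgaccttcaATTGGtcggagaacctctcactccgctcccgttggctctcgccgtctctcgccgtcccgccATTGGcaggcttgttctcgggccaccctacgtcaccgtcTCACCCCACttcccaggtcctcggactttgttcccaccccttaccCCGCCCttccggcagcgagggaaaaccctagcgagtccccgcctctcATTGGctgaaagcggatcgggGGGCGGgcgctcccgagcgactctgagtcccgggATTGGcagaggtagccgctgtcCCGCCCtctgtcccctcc
Msmo1: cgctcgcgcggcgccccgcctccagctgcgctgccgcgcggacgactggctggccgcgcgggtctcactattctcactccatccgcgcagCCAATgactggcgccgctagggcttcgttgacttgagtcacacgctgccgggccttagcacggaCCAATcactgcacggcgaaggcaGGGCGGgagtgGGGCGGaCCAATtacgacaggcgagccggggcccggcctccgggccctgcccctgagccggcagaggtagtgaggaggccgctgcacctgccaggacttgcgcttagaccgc
Nsdhl: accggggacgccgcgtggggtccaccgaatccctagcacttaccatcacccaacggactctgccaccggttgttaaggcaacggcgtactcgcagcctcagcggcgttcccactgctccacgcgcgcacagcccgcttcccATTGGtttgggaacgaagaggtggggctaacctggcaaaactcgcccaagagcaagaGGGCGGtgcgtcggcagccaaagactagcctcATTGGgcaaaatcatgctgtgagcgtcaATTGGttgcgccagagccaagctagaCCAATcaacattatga
Srebf2: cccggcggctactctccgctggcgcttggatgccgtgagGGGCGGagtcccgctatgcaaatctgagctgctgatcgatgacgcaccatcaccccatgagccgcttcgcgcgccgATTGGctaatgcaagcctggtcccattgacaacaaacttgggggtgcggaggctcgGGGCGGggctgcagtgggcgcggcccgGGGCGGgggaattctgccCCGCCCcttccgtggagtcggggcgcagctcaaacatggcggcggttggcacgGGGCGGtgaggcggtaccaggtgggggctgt
Fads2: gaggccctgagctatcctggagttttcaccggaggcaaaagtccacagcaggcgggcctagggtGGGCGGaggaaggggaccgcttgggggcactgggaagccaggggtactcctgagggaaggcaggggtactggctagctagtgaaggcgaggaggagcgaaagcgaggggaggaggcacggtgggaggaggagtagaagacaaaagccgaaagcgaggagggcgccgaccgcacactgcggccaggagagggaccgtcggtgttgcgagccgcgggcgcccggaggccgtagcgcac
Insig1: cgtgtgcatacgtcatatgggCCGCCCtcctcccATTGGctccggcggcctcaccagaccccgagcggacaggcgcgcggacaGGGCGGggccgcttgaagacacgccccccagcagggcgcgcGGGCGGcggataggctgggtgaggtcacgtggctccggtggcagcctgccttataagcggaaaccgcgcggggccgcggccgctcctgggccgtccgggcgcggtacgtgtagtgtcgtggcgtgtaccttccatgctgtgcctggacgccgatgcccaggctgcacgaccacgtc
Acaca: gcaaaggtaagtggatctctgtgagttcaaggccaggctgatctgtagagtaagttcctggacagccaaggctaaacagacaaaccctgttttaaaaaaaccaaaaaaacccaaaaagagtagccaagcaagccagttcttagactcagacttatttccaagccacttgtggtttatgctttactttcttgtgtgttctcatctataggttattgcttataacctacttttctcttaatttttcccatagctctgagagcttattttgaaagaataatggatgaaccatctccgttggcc
Elovl6: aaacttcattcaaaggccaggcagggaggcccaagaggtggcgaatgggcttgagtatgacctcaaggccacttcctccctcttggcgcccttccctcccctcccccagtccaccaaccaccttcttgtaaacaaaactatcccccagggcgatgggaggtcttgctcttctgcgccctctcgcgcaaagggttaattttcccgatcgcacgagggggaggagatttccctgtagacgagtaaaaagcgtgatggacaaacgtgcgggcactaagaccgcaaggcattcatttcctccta

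The Hmgcs1 window held the sterol response element, 4 CCAAT and 3 GGGCGG motifs, and it was the only member window with TCACNCCAC, which 1.44% of the 27025 genes with a window held. Msmo1 held 3 CCAAT and 2 GGGCGG motifs, Nsdhl 4 and 1, and Srebf2 1 and 5. Over all members with a window, CCAAT occurred in 21 of 26 (80.8%) against 41.1% of all genes, and GGGCGG in 22 of 26 (84.6%) against 38.2%. TCACGTGA, a separate motif of the E-box type that was also sought, occurred in 0 of 26 members and in 1.12% of all genes. Fads2 held 1 GGGCGG motif, and the window of Acaca, which lies inside the annotated gene, held none of the 4. The window of Elovl6, which fell in DG granule and CA3 neurons, held none of them either. These matches describe letters in a window and were not tested for function.

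KI was compared with WT on counts summed per library, first over all nuclei. With 2 mice per genotype, p-values measure only the spread between these libraries. Where a library is left out, the lone library of its genotype is assumed to vary like the other 2, and far more genes can then pass: without KI replicate 2, 3.38% to 46.4% of all genes passed, depending on the class. Of the 33 members, 1 rose and 0 fell at an adjusted p under 0.05, where 0.889% of 21718 genes passed, and 11 members had an unadjusted p under 0.05, as did 24.3% of all genes. The gene was Acaca (chromosome 11, 84129672 to 84401651, plus strand, in GRCm38), with 128 and 130 CPM in WT, with 197 and 189 CPM in KI. Both KI libraries lay above both WT libraries, as for 26.7% of all genes and 5 members. Another 34.3% of all genes and 18 members lay below. The log2 fold change of Acaca was 0.63 (SE 0.09, adjusted p 0.0470 by edgeR's quasi-likelihood test). Without WT replicate 1 or WT replicate 2 its adjusted p was 0.146 or 0.111, and without doublet removal 0.0506. Hmgcs1 (22.5 and 23.2 CPM in WT, 16.7 and 18.4 in KI) and Srebf2 (56.5 and 58.0 in WT, 43.8 and 45.5 in KI) lay lower in both KI libraries without passing, at adjusted p values of 0.154 and 0.126 in the edgeR test. Without KI replicate 2 both were under 0.05, at 0.0217 and 0.0239, with 32.4% of all genes, and over all alternatives their adjusted p reached 0.652 and 0.611. Fdft1 (27.4 to 28.3 CPM in all libraries), Cyp51 (20.9 to 28.5 CPM) and Scd2 (99.4 to 138 CPM) had log2 fold changes of 0.08, -0.22 and 0.26 that did not pass. Cyp51 was at -0.40 without KI replicate 1 and -0.08 without KI replicate 2, and Scd2 at 0.48 without WT replicate 1 and 0.06 without WT replicate 2. The libraries differ in their shares of cell classes, and in such sums fewer nuclei of a class and less RNA per nucleus cannot be told apart, so classes were examined next.

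**Figure D2:**
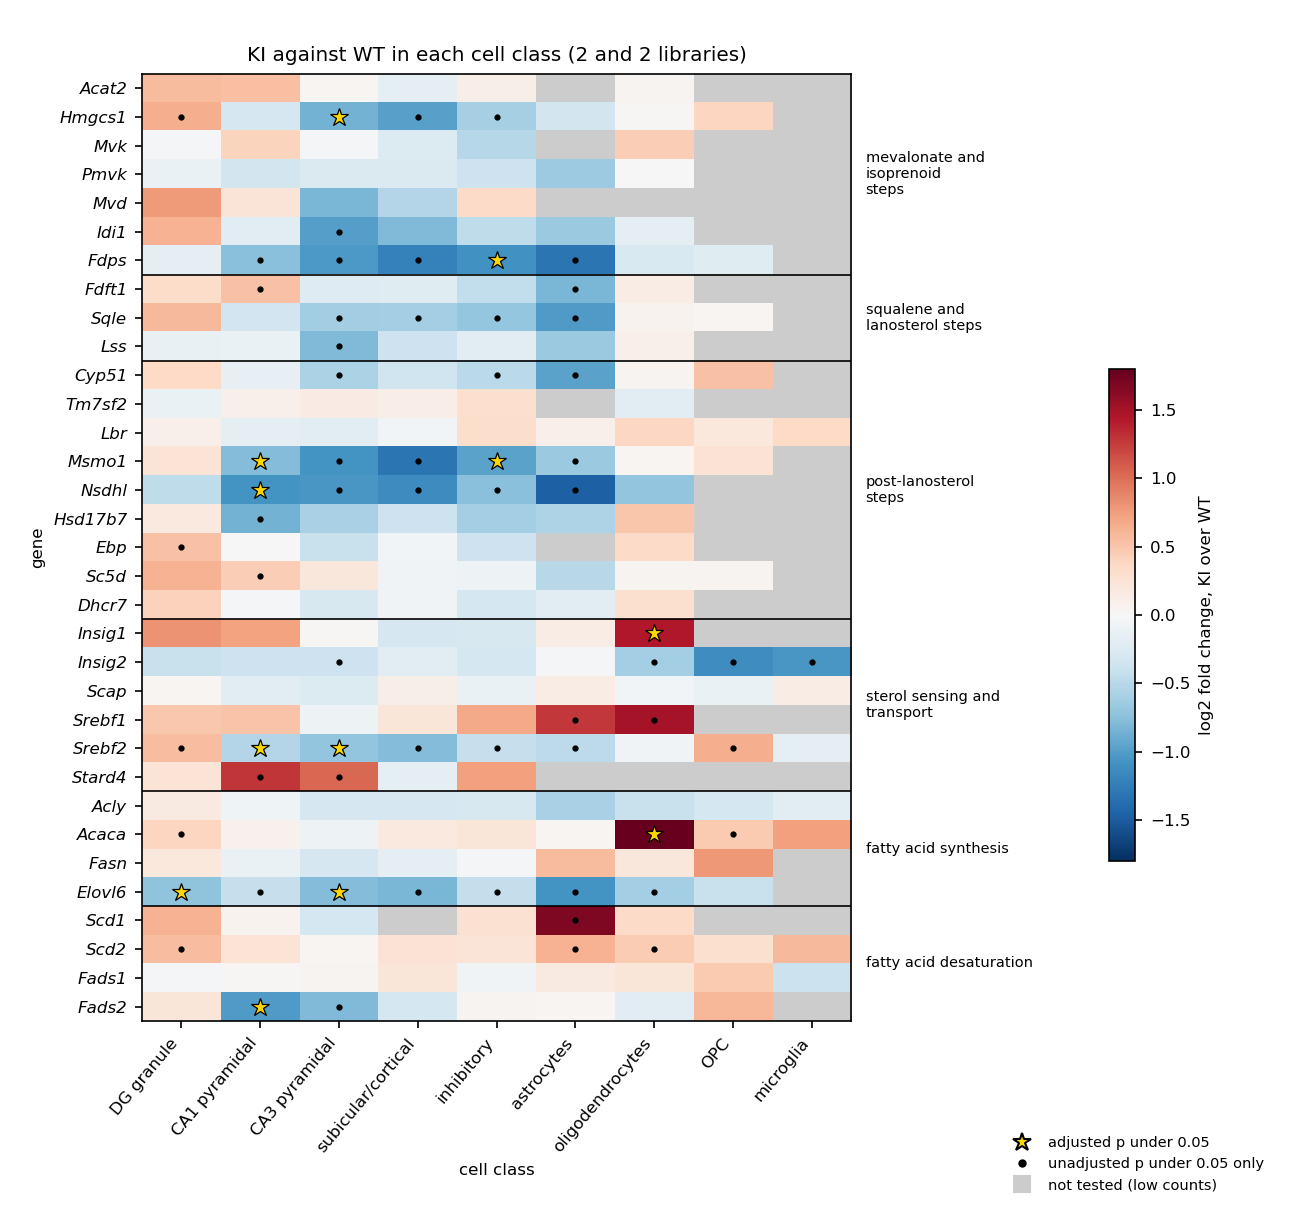
Log2 fold change (KI over WT, 2 libraries each) of the 33 genes in 9 cell classes. Stars mark an adjusted p under 0.05 in edgeR's test over all genes of the class, small points an unadjusted p under 0.05 only, and grey cells were not tested. Stars in the neuronal columns stand on falls, and the 2 stars in oligodendrocytes on rises.

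The genes that passed within classes lie on several chromosomes of GRCm38, with Srebf2 on chromosome 15 (82147181 to 82205379, plus strand), Msmo1 on 8 (64718139 to 64733792, minus strand), Hmgcs1 on 13 (119690379 to 119708260, plus strand), Fads2 on 19 (10062765 to 10101746, minus strand) and Elovl6 on 3 (129532355 to 129638495, plus strand). Nsdhl is on X (72918557 to 72958514, plus strand), Fdps on 3 (89093588 to 89101959, minus strand), Insig1 on 5 (28071363 to 28078662, plus strand) and Acaca on 11, as given above. Acaca, Elovl6 and Hmgcs1 each overlap 1 annotated gene of the other strand.

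In CA1 pyramidal neurons 4 members fell and 0 rose, of 33 tested, where 8.16% of 15681 genes passed. Srebf2, the gene of the master regulator of sterol synthesis, fell from 60.1 and 59.4 CPM to 37.1 and 40.6 CPM (log2 fold change -0.53, SE 0.11, adjusted p 0.0300 by edgeR's quasi-likelihood test). Msmo1 fell from 18.4 and 17.1 CPM to 9.81 and 9.43 CPM (-0.78, SE 0.17, adjusted p 0.0313). Nsdhl, which codes for a dehydrogenase that acts in the same demethylation complex, fell from 6.88 and 7.32 CPM to 3.21 and 3.07 CPM (-1.08, SE 0.25, adjusted p 0.0396). Fads2 fell from 8.41 and 7.42 CPM to 3.77 and 3.50 CPM (-1.02, SE 0.24, adjusted p 0.0432). The groups did not overlap for these 4 genes, nor for many others: 37.2% of all genes tested in CA1 lay below both WT libraries in KI and 22.9% above, beside 17 and 6 of the 33 members. In all 33 the median log2 fold change was -0.11, beside 0.00 for all genes tested, and 20 were negative. Fdft1, the squalene synthase gene, and Sc5d, a sterol desaturase gene, had positive values of 0.53 and 0.45 that did not pass (adjusted p 0.0574 and 0.145 in the edgeR test). The largest fold change of a member in CA1 was positive, that of Stard4 at 1.29 (SE 0.51, adjusted p 0.158), on 12 and 11 UMIs in WT and 35 and 13 in KI.

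Without WT replicate 1 the adjusted p of the 4 genes was 0.187 to 0.319, and without WT replicate 2 it was 0.123 to 0.276, so none passed. By marker gates alone none of the 4 passed either, under DESeq2 only Srebf2 did, and at equal depth only Srebf2 did, while Nsdhl and Fads2 also failed without doublet removal. The 8 astrocyte markers summed in these nuclei to 86.5 and 91.3 CPM in WT, with 53.5 and 69.3 CPM in KI, 6 of 8 being lower in both KI libraries and none at 0, and the 6 CA1 markers to 1207 and 1155 CPM in WT, with 1029 and 871 CPM in KI. The 6 OPC markers summed to 68.1 and 71.6 CPM in WT against 122.3 and 121.7 CPM in KI, 2 of 6 being higher and 2 lower in both KI libraries. Committed OPC markers went from 56.1 and 55.1 to 34.2 and 39.5 CPM (3 of 6 lower in both KI libraries), fibroblast markers from 34.4 and 37.5 to 45.1 and 45.1 CPM (2 of 8 higher), CA3 markers from 262 and 280 to 225 and 239.7 CPM (4 of 7 lower) and microglial markers from 118 and 117 to 97.5 and 101 CPM (1 of 8 lower). Of the 18 marker lists, the summed level was lower in both KI libraries for 5 and higher for 5, beside 9 and 3 in DG granule neurons, 6 and 3 in CA3, 8 and 3 in inhibitory neurons, 6 and 4 in astrocytes and 5 and 3 in oligodendrocytes. The part of these lists in the falls was not tested.

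In CA3 pyramidal neurons 3 members fell and 0 rose, where 2.62% of 14940 genes passed. Hmgcs1 fell from 26.2 and 25.8 CPM to 12.8 and 14.4 CPM (log2 fold change -0.86, SE 0.17, adjusted p 0.0358 by edgeR's quasi-likelihood test). Srebf2 fell from 67.8 and 59.0 CPM to 34.9 and 38.6 CPM (-0.70, SE 0.14, adjusted p 0.0407). Elovl6 fell from 85.8 and 80.8 CPM to 39.2 and 52.5 CPM (-0.78, SE 0.15, adjusted p 0.0344). The KI libraries lay below both WT libraries for each of these and for 20 of 33 members in all, where 34.9% of all genes did, and 26 of 33 members had a negative fold change, with a median of -0.31 beside 0.00 for all genes tested. By step, 6 of 7 mevalonate genes, 3 of 3 squalene and lanosterol genes, 7 of 9 post-lanosterol genes, 4 of 4 fatty acid synthesis genes, 2 of 4 desaturation genes and 4 of 6 sensing and transport genes were negative. The last hold the largest positive value, that of Stard4, a sterol transport gene (1.03, adjusted p 0.179 in the edgeR test). The summed astrocyte markers overlapped between genotypes here, at 72.4 and 74.0 CPM in WT, with 62.7 and 80.3 CPM in KI, while the OPC markers summed to 90.4 and 105 CPM in WT against 182 and 135 CPM in KI. Fibroblast markers went from 22.6 and 22.8 to 37.8 and 37.2 CPM (4 of 8 higher in both KI libraries, Col1a2 at 0), endothelial markers from 8.27 and 9.19 to 12.5 and 15.7 CPM (5 of 8 higher), and inhibitory markers went from 95.6 and 90.7 to 68.8 and 64.1 CPM (3 of 8 lower). The CA3 markers went from 3511 and 3334 to 3023 and 3244 CPM (4 of 7 lower), and subicular or cortical markers from 2048 and 1927 to 1758 and 1770 CPM (4 of 8 lower, 1 higher). The part of these lists was not tested. Without WT replicate 1 the adjusted p was 0.1703 to 0.4507 and without WT replicate 2 0.0573 to 0.165. Hmgcs1 did not pass under DESeq2 (0.0584), at equal depth or with gates alone, and Srebf2 did not at equal depth (0.0514), without doublet removal or with either other definition of the class.

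Inhibitory neurons showed falls of 2 members and rises of 0, where 2.74% of 14269 genes passed. Msmo1 fell from 28.6 and 23.0 CPM to 11.5 and 13.04 CPM (log2 fold change -0.96, SE 0.21, adjusted p 0.0285 by edgeR's quasi-likelihood test). Fdps, which codes for the synthase of farnesyl diphosphate at the branch to sterols and prenylated proteins, fell from 15.4 and 15.8 CPM to 7.26 and 6.35 CPM (-1.09, SE 0.25, adjusted p 0.0358). Groups did not overlap for either, with 17 of 33 members below both WT libraries where 36.8% of all genes were, and 23 of 33 members were negative, with a median of -0.29. Summed astrocyte markers overlapped here too, at 42.1 and 38.6 CPM in WT, with 35.9 and 39.7 CPM in KI, while the OPC markers summed to 321 and 335 CPM in WT against 371 and 404 CPM in KI. Lists of excitatory neurons were lower in these nuclei: CA3 markers went from 644 and 636 to 462 and 535 CPM (5 of 7 lower in both KI libraries), DG markers from 232 and 229 to 183 and 211 CPM (4 of 6), CA1 markers from 226 and 241 to 185 and 196 CPM (2 of 6) and subicular or cortical markers from 329.8 and 328 to 250.4 and 267 CPM (4 of 8). The part of these lists was not tested. Neither passed under DESeq2 (0.178 for Fdps and 0.103 for Msmo1), without WT replicate 1 (0.550 and 0.656) or with gates alone (0.0595 and 0.0572). Fdps also failed without WT replicate 2 (0.144), and Msmo1 with classes from clusters (0.0617).

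Among subicular or cortical excitatory neurons 0 of 32 tested members passed in edgeR's quasi-likelihood test, where 0.124% of 13696 genes passed, and 7 had an unadjusted p under 0.05, as did 12.5% of all genes. DESeq2 also called 0. The smallest p values were those of Msmo1 (30.1 and 38.5 CPM in WT, 13.03 and 13.8 in KI, log2 fold change -1.32, SE 0.23, adjusted p 0.0738) and Srebf2 (83.4 and 81.6 CPM in WT, 43.3 and 48.7 in KI, -0.78, SE 0.15, adjusted p 0.105). Both genes lay lower in both KI libraries, as Srebf2 did in the CA1 and CA3 neurons. Of 13 alternatives Msmo1 passed under 4 and Srebf2 under 3. Their adjusted p was 0.0526 and 0.178 under DESeq2. In edgeR's test it was 0.129 and 0.0918 at equal depth, and 0.162 and 0.221 with gates alone. With 1 library left out the log2 fold changes were -1.47 to -1.11 for Msmo1 and -0.84 to -0.73 for Srebf2.

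In DG granule neurons 0 members rose and 1 fell, where 10.2% of 16147 genes passed, so the 1 call in 33 lies under the share of all genes. Of the 33, 24 had a positive fold change without passing, with a median of 0.25 beside 0.00 for all genes tested. In this class 8 members lay below and 11 above both WT libraries in KI, where 43.1% and 20.5% of all genes did. Elovl6 fell from 57.9 and 55.3 CPM to 32.1 and 30.01 CPM (log2 fold change -0.72, SE 0.12, adjusted p 0.0175 by edgeR's quasi-likelihood test), with no overlap of the groups. Without WT replicate 1 or WT replicate 2 its adjusted p was 0.290 or 0.224. Srebf2 had 37.1 and 36.2 CPM in WT, with 53.8 and 43.7 CPM in KI, and Hmgcs1 had 10.9 and 10.7 CPM in WT, with 17.6 and 13.1 CPM in KI. Both genes were above WT in both KI libraries, with log2 fold changes of 0.56 and 0.66 and adjusted p values of 0.0663 and 0.0906 in the edgeR test that did not pass. When scaled by library totals, the median of all genes in DG granule neurons was -0.14, that of the members 0.10, and 22 of 33 were positive.

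**Figure D3:**
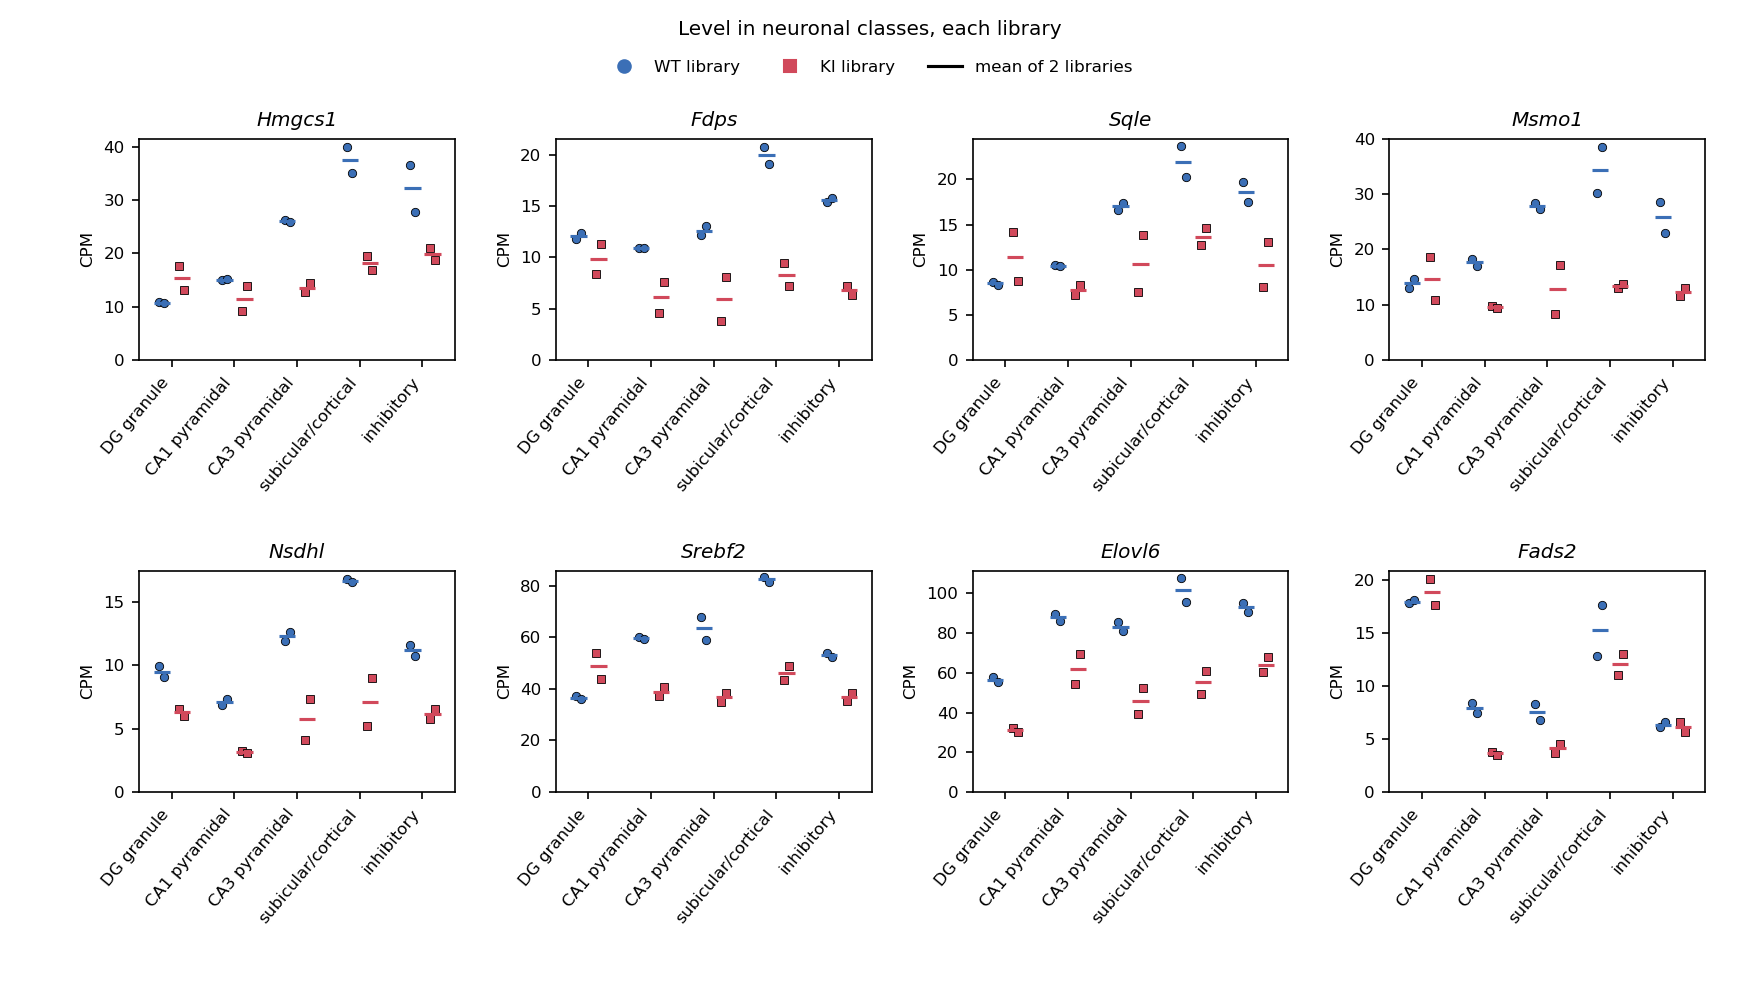
CPM of 8 genes in 5 neuronal classes, with 1 point for each library (circles WT, squares KI) and a bar at the mean of 2 libraries. Srebf2 lay below WT in the KI libraries of 4 classes and above it in DG granule neurons, whereas Elovl6 lay below WT in all 5.

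Whether the genotype effect differed between these classes was tested directly. The log2 fold change in CA1 pyramidal neurons minus that in DG granule neurons passed for 5 of 33 members, all negative, where 9.95% of 18255 genes passed (5.74% positive, 4.22% negative). Srebf2 differed by -1.07 (SE 0.15, adjusted p 2.65e-07 by edgeR's quasi-likelihood test) and Fads2 by -1.23 (SE 0.24, adjusted p 0.000149), and both passed under each of 10 alternatives. Hmgcs1 differed by -0.96 (SE 0.22, adjusted p 0.00147), Msmo1 by -1.03 (SE 0.26, adjusted p 0.00332) and Sqle, which codes for squalene epoxidase, by -0.93 (SE 0.27, adjusted p 0.0161). In DG granule neurons KI replicate 1 was the higher KI library for these genes: Sqle had 14.2 CPM there and 8.71 CPM in KI replicate 2, against 8.64 and 8.36 CPM in WT. Without KI replicate 1 the differences were -0.46 for Hmgcs1, -0.62 for Msmo1 and -0.42 for Sqle, and none of the 3 passed. Msmo1 also failed without WT replicate 1 (0.101), under DESeq2 (0.116) and with gates alone (0.0626), and Sqle without either WT replicate (0.273 and 0.279) and under DESeq2 (0.15999). The astrocyte markers in DG granule neurons summed to 97.1 and 94.5 CPM in WT, with 58.8 and 72.4 CPM in KI, 4 of 8 being lower in both KI libraries. The 6 OPC markers summed there to 66.4 and 74.6 CPM in WT against 217 and 149 CPM in KI, 2 of 6 being higher in both KI libraries, and the 8 inhibitory markers to 1715 and 1635 CPM against 1311 and 1254 CPM, 4 of 8 being lower. None of these markers was at 0, and their part in the differences was not tested.

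**Figure D4:**
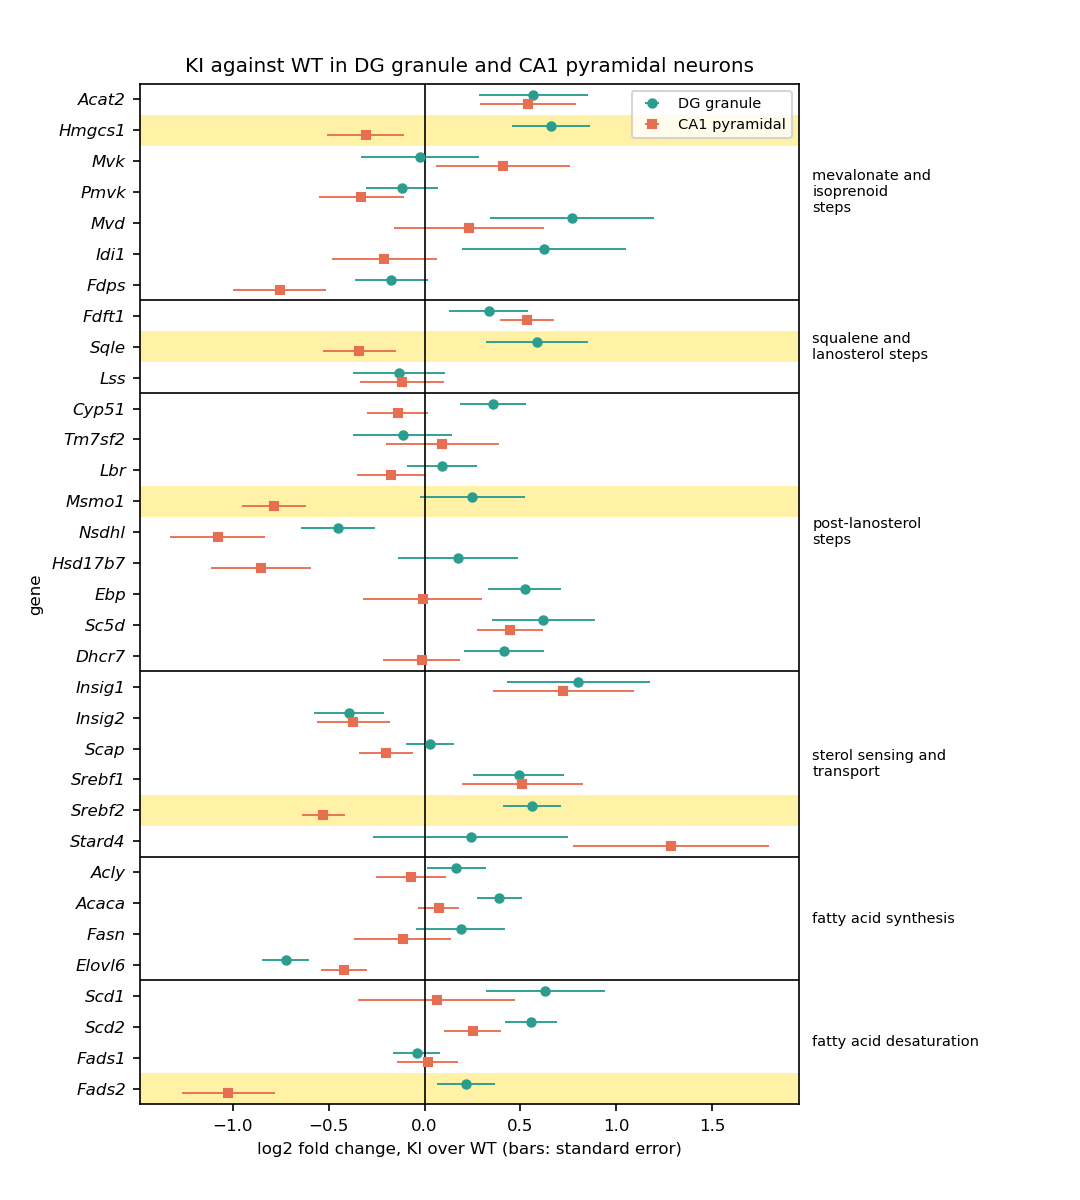
Log2 fold change (KI over WT) of the 33 genes in DG granule neurons (circles) and CA1 pyramidal neurons (squares), with standard errors as bars. Yellow bands mark the 5 genes whose fold change differed between the classes at an adjusted p under 0.05, and in each the CA1 value is the lower.

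In oligodendrocytes 2 members rose and 0 fell, of 31 tested, where 0.969% of 12389 genes passed. Acaca rose from 396 and 350 CPM to 1196 and 1297 CPM, a rise of 1.805 on the log2 scale (SE 0.16, adjusted p 0.000882 by edgeR's quasi-likelihood test). The lower KI library lay far above both WT libraries, and the gene passed under each of 13 alternatives, with values of 1.72 to 1.89. Insig1, which codes for a protein that holds SREBP precursors in the endoplasmic reticulum, rose from 23.5 and 19.5 CPM to 61.6 and 47.7 CPM (1.44, SE 0.23, adjusted p 0.0236). Its groups did not overlap. In all, 6 of 31 members and 17.4% of all genes lay above both WT libraries, and 4 and 27.3% below. Insig1 did not pass with gates alone (0.0501 in the edgeR test) or without WT replicate 2 (log2 fold change 1.31). The 8 oligodendrocyte markers overlapped between genotypes, at 5690 and 5649 CPM in WT, with 6542 and 5605 CPM in KI, while the OPC markers summed to 92.3 and 82.8 CPM in WT against 151 and 134 CPM in KI, and their part was not tested. Srebf1 had 18.6 and 17.1 CPM in WT, with 64.2 and 23.4 CPM in KI (1.497, adjusted p 0.108 in the edgeR test), so KI replicate 1 stood apart. Besides the 2 genes called, 4 had an unadjusted p under 0.05, where 14.3% of all genes had, Srebf1 and Scd2 with positive and Insig2 and Elovl6 with negative fold changes, and the median of all 31 was 0.05.

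Acaca was compared with other classes by the class-by-genotype term. Its fold change in astrocytes, where it had 181 and 223 CPM in WT, with 228 and 176 CPM in KI, was below that in oligodendrocytes by a log2 difference of -1.77 (SE 0.18, adjusted p 1.66e-09 by edgeR's quasi-likelihood test). It was the only member past the threshold for that difference, where 0.811% of 18255 genes passed, and it passed under each of 10 alternatives. Between neurons and glia Acaca was again the only member, with a difference of -0.61 (SE 0.12, adjusted p 0.00163), where 1.46% of 18255 genes passed. That call was lost without KI replicate 1 (-0.43, adjusted p 0.302), without WT replicate 1 (0.151) and without WT replicate 2 (0.0765). Per nucleus, oligodendrocytes held 1.95 and 2.02 Acaca UMIs in the KI libraries, the highest of the 9 classes, whereas in WT the highest were CA3 pyramidal neurons with 1.17 and 1.38.

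Of 27 members tested in astrocytes 0 passed in edgeR's quasi-likelihood test, where 0.328% of 9437 genes passed, 11 had an unadjusted p under 0.05, as did 13.3% of all genes, and DESeq2 called 0. The median was -0.47 beside 0.00 for all genes tested, and the signs differed by step: 4 of 4 mevalonate genes, 3 of 3 squalene and lanosterol genes and 6 of 7 post-lanosterol genes tested were negative, while 4 of 4 desaturation genes, 2 of 4 fatty acid synthesis genes and 3 of 5 sensing and transport genes were positive. Srebf1 had 37.9 and 61.8 CPM in WT, with 131 and 108 CPM in KI (log2 fold change 1.28, SE 0.27, adjusted p 0.0599). Scd1, another stearoyl-CoA desaturase gene, had 22.1 and 18.0 CPM in WT, with 88.2 and 35.2 CPM in KI (1.68, SE 0.40, adjusted p 0.0942). Both KI libraries were above both WT libraries for each gene, as they were for 19.5% of all genes tested in astrocytes, while 24.6% lay below. Of the 27 members 5 lay above and 14 below. Srebf1 passed without WT replicate 2 (0.0171), KI replicate 1 (0.0443) or KI replicate 2 (0.000815), and Scd1 without WT replicate 1 (0.0209) or KI replicate 2 (1.96e-05). Without KI replicate 1 Scd1 was at 0.82 (adjusted p 0.446), and without WT replicate 1 Srebf1 was at 0.96 (adjusted p 0.441). Nsdhl had the most negative value (-1.47, SE 0.48, adjusted p 0.207), on 50 and 52 UMIs in WT and 2 and 13 in KI. Marker sums of other classes also separated the genotypes in astrocytes: oligodendrocyte markers were at 238 and 145 CPM in WT against 303 and 291 CPM in KI, and CA3 markers at 1264 and 1296 CPM against 1056 and 1002 CPM. Their part in these values was not tested.

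**Figure D5:**
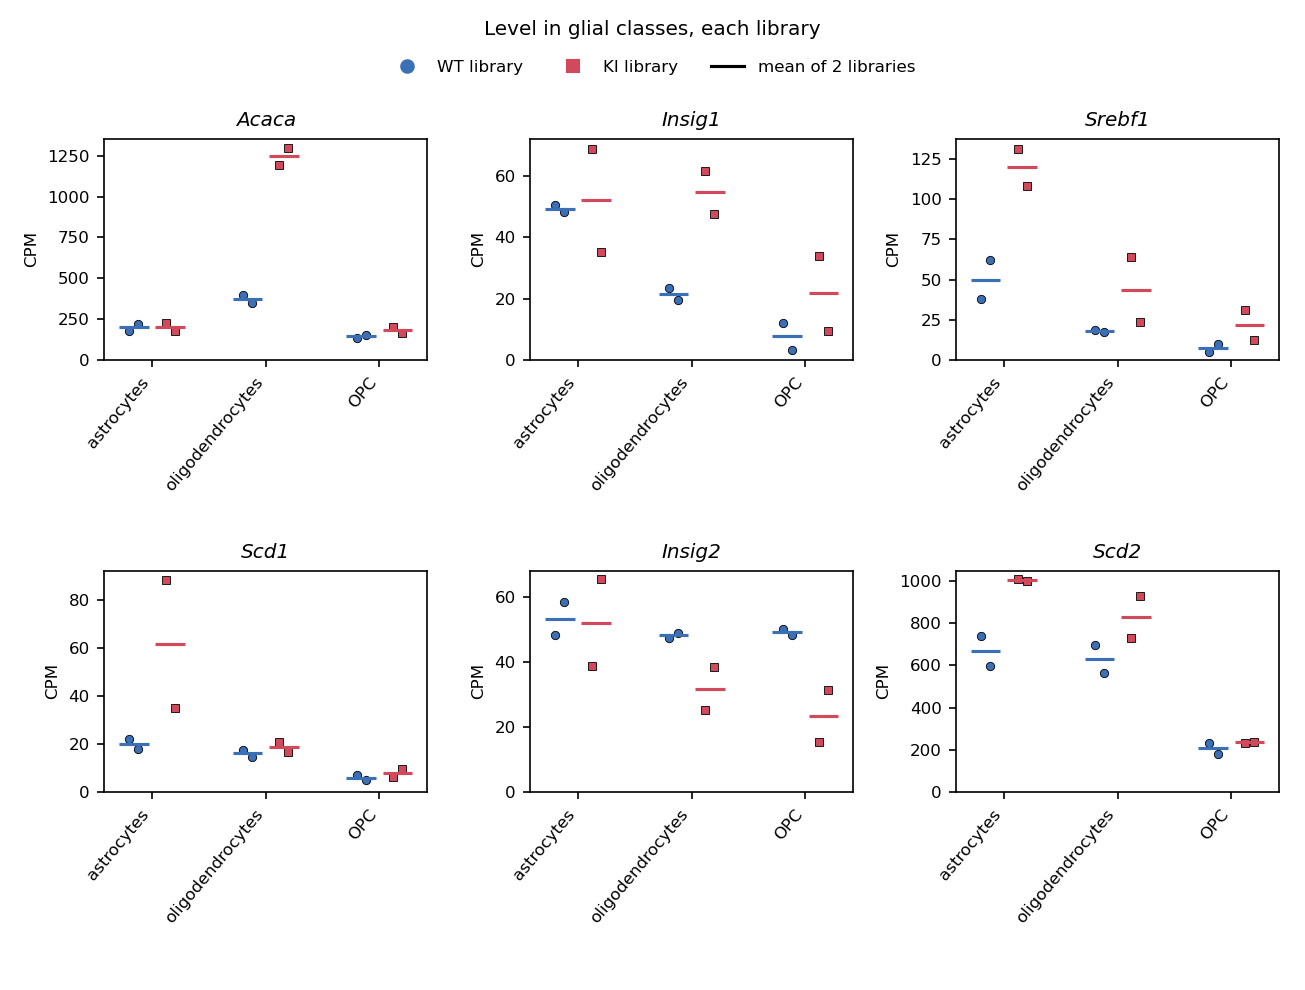
CPM of 6 genes in astrocytes, oligodendrocytes and OPC, with 1 point for each library (circles WT, squares KI) and a bar at the mean of 2 libraries. Acaca stood at 1196 and 1297 CPM in the KI oligodendrocytes against 396 and 350 CPM in WT, and Srebf1 was higher in both KI libraries of astrocytes.

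In OPC 0 of 17 tested members passed in edgeR's test, where 1.73% of 8422 genes passed, and in microglia 0 of 8, where 0.159% of 6279 genes passed. At an unadjusted p under 0.05 there were 3 in OPC, with 1096 of 8422 genes, and 1 in microglia, with 9.76% of genes, and DESeq2 called 0 in both. Insig2, a relative of Insig1, had 50.2 and 48.5 CPM in WT, with 15.5 and 31.5 CPM in KI OPC (log2 fold change -1.12, adjusted p 0.133), and 99.5 and 62.6 CPM in WT, with 32.6 and 53.4 CPM in KI microglia (-1.05, adjusted p 0.399). Both KI libraries lay below WT in both classes, on 7 to 30 UMIs each, as 28.2% of all genes did in OPC and 20.4% in microglia. Acaca in OPC (137 and 155 CPM in WT, 204 and 167 in KI, 0.47) and Scd2 in microglia (282 and 180 CPM in WT, 293 and 420 in KI, 0.58) had adjusted p values of 0.286 and 0.514 in the edgeR test. Without KI replicate 2 Insig2 and Acaca passed in OPC, at 0.0242 and 0.0349, whereas without KI replicate 1 they were at -0.57 (adjusted p 0.829) and 0.27 (adjusted p 0.844). In microglia the alternatives gave -1.31 to -0.61 for Insig2 and 0.31 to 0.93 for Scd2.

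The classes share their 4 libraries, and 5 members had 1 sign in every class tested, of those tested in at least 7. Elovl6 had a negative fold change in 8 of 8 classes tested (-1.07 to -0.40), Fdps in 8 of 8 (-1.31 to -0.17), Insig2 in 9 of 9 (-1.12 to -0.02) and Nsdhl in 7 of 7 (-1.47 to -0.45). Scd2 was positive in 9 of 9 (0.03 to 0.63). Of all genes tested in 9 classes 7.97% were negative and 8.58% positive in each, of those tested in 8 classes 7.98% and 9.19%, and of those tested in 7 classes 10.8% and 11.1%. Among members, 1 was negative and 1 positive of 8 tested in 9 classes, 2 and 0 of 9 in 8 classes, and 1 and 0 of 9 in 7 classes. With so few members these counts lie near the shares of all genes. Acaca was positive in 8 of 9 (-0.10 to 1.805). Srebf2, Hmgcs1 and Msmo1 were negative in 7 of 9, 5 of 8 and 5 of 8 classes, DG granule neurons and OPC being among those where they were positive.

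Another 34 genes of neighbouring steps were read from the same fits. Of these, 4 passed among DG granule nuclei (1 higher, 3 lower), 1 in CA1, 1 in CA3, 1 in inhibitory neurons and 0 in the other 5 classes and over all nuclei. Of all genes 10.2% passed in DG, 8.16% in CA1, 2.62% in CA3 and 2.74% in inhibitory neurons, so these counts lie near or under the shares. Scarb1, a receptor gene for high-density lipoprotein, fell from 30.6 and 33.1 CPM to 12.7 and 15.1 CPM among DG granule nuclei (log2 fold change -1.06, SE 0.14, adjusted p 0.00906 by edgeR's quasi-likelihood test). Nr1h3, which codes for the oxysterol sensor LXR alpha, fell there too (-1.62, SE 0.39, adjusted p 0.0486), though from only 2.64 and 2.38 CPM to 0.563 and 0.942 CPM. Acsl6, an acyl-CoA synthetase gene of neurons, rose from 49.3 and 53.5 CPM to 81.1 and 78.3 CPM (0.77, SE 0.11, adjusted p 0.0105). Soat1, whose product esterifies cholesterol for storage, rose in CA1 pyramidal neurons from 15.7 and 18.2 CPM to 27.6 and 29.6 CPM (0.85, SE 0.15, adjusted p 0.0167). Abca1, a cholesterol efflux transporter, rose in CA3 pyramidal neurons from 13.6 and 14.8 CPM to 29.98 and 27.4 CPM (1.11, SE 0.17, adjusted p 0.0192). Hsd17b12, a reductase gene of fatty acid elongation, fell in inhibitory neurons from 55.8 and 63.0 CPM to 37.6 and 29.96 CPM (-0.71, SE 0.16, adjusted p 0.0358). The groups did not overlap for these 6, as was the case for 43.1% of all genes (lower) and 20.5% (higher) in DG granule neurons. Soat1 and Abca1 did not pass without WT replicate 1 (0.177 and 0.0793), nor did Scarb1 (0.1304), Acsl6 (0.248), Nr1h3 (0.401) and Hsd17b12 (0.516). Without WT replicate 2 the last 4 did not pass either (0.1604, 0.178, 0.339 and 0.242), and Nr1h3 also failed without KI replicate 1 (0.0519). Nr1h3 did not pass under DESeq2 (0.199), at equal depth (0.0684) or with classes from clusters (0.0595), and Hsd17b12 did not under DESeq2 (0.0877) or with gates alone (0.1395).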

How the data were processed

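Single-nucleus RNA sequencing of hippocampi from 2 WT and 2 KI mice was read from the matrices that the authors deposited, which hold raw UMI counts per gene and barcode. Per the file headers these counts were made with Cell Ranger 7.0.1, and the submitters' processing notes name mm10. The handling of intronic reads was not given in the sources used here.

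Barcodes had to hold 500 genes or more, with less than 5% of UMIs from mitochondrial genes, and those with a Scrublet score above 0.25 were removed as doublets. Classes were the nuclei for which a likelihood over marker genes and the name of their cluster (scanpy 1.11.5, leidenalg 0.10.2, resolution 0.5, members left out) were the same. This left 17461 of 52032 nuclei (33.6%) unused: 4113 of 14927 and 3565 of 12372 in WT, and 3943 of 11932 and 5840 of 12801 in KI, the largest loss being in KI replicate 2. The scoring of markers was chosen after the data were seen, and the class names were set anew, so they may not match the names used in the study. Members and gene lists were chosen with earlier results of these data known.

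Counts were summed per library and class and tested with edgeR 4.0.16 (quasi-likelihood test, TMM factors, low-count filter) in R 4.3.3, with Benjamini-Hochberg adjustment over all genes tested and a threshold of 0.05. Class contrasts and class-by-genotype terms used 32 sums (8 classes, 4 libraries) with the library as a block. Alternatives were DESeq2 1.42.0, library totals, no filter, nuclei of at least 1000 genes, no doublet removal, equal depth, classes from clusters or gates alone, a replicate block and leaving out each library. The tests were tried on counts made with known changes before use. Precision is set by 2 libraries per genotype and by the UMIs of each class.

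Genes named are the members past the threshold in a class, the 2 with the smallest p and at least 10 CPM where none passed, the 2 most extreme members in each direction of a class contrast, for each of the 6 groups of steps the member with the highest level over all nuclei, all members past a class-by-genotype term, and up to 3 related genes past the threshold per class by size of fold. Genes set beside them for contrast were chosen after their values were seen. RefSeq promoter windows were matched by symbol. No window was used for Fads1, Fdft1, Fdps, Scd1, Scd2, Sqle and Stard4.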

Additional observations from a re-analysis of the deposited data

Results flagged for a closer look

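The KI effect differed between CA1 pyramidal and DG granule neurons for 5 members, by the test of the class-by-genotype term, where 9.95% of 18255 genes passed. The log2 differences (CA1 minus DG) were -1.07 for Srebf2, -1.23 for Fads2, -0.96 for Hmgcs1, -1.03 for Msmo1 and -0.93 for Sqle. Without KI replicate 1 they were -0.46 for Hmgcs1, -0.62 for Msmo1 and -0.42 for Sqle, with adjusted p values of 0.247, 0.0982 and 0.455 in edgeR's test, and the 3 did not pass. In CA1 the KI libraries were below both WT libraries for all 5 genes, as they were for 37.2% of all genes tested in CA1, with Hmgcs1 at 15.0 and 15.1 CPM in WT, with 9.15 and 13.9 CPM in KI. In DG granule neurons both KI libraries were above WT for Srebf2, Hmgcs1 and Sqle, and the groups overlapped for Fads2 and Msmo1.

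The KI effect on Acaca differed between astrocytes and oligodendrocytes by -1.77 and between neurons and glia by -0.61 on the log2 scale, where 0.811% and 1.46% of 18255 genes passed. The difference between neurons and glia did not pass in 3 of 10 alternatives: without WT replicate 1 (adjusted p 0.151 in edgeR's test), without WT replicate 2 (0.0765) and without KI replicate 1 (-0.43, 0.302). The KI libraries of oligodendrocytes held 1196 and 1297 Acaca CPM, beside 176 to 228 CPM over the 4 libraries of astrocytes.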

How the results depend on the processing

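Of 624 alternative values of named genes, 521 kept their direction and side of the threshold, 81 no longer passed, 21 newly passed and 1 reversed (Elovl6, neurons minus glia, -0.00708 with library totals, adjusted p 0.965 in edgeR's test). The cause was not tested for any. The number of members past the threshold was 1 over all nuclei, 4 in CA1, 3 in CA3, 1 in DG, 2 in inhibitory neurons and 2 in oligodendrocytes. With DESeq2 it was 5 over all nuclei, 1 in CA1, 2 in DG, 0 in inhibitory neurons, 1 in oligodendrocytes and 3 for the CA1 minus DG difference. Without the low-count filter it was 4 over all nuclei, 8 in CA3, 8 in DG, 4 in astrocytes, 6 in subicular or cortical neurons, 10 for microglia against the other classes and 2 for the astrocyte minus oligodendrocyte difference. Among all genes 710 then passed over all nuclei, 1769 in CA3 (392 with the filter), 274 in astrocytes (31) and 482 in subicular or cortical neurons (17). At equal depth it was 1 in CA1, 1 in CA3, 2 in DG and 1 in astrocytes. Without doublet removal it was 0 over all nuclei and 2 in CA1, and with nuclei of at least 1000 genes 2 in DG. With classes from clusters it was 1 in inhibitory and 1 in subicular or cortical neurons. With gates alone, an alternative chosen after seeing the data, it was 0 in CA1, 1 in CA3, 3 in DG, 0 in inhibitory neurons, 1 in oligodendrocytes, 8 for OPC and 9 for microglia against the other classes.

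Leaving out 1 library gave 0 to 16 members over all nuclei, 0 to 15 in CA1, 0 to 16 in CA3, 0 to 19 in DG, 0 to 7 in inhibitory neurons, 0 to 6 in subicular or cortical neurons, 1 to 5 in astrocytes, 2 to 7 in oligodendrocytes, 0 to 3 in OPC and 0 to 0 in microglia. It gave 3 to 9 for microglia against the other classes, 3 to 9 for the CA1 minus DG difference, 1 to 3 for astrocytes minus oligodendrocytes and 0 to 3 for neurons minus glia. Without KI replicate 2 the counts were 16 over all nuclei, 15 in CA1, 16 in CA3, 19 in DG, 5 in astrocytes, 7 in oligodendrocytes and 6 in subicular or cortical neurons, where 32.4%, 41.1%, 34.1%, 46.4%, 4.31%, 19.4% and 9.57% of all genes passed. Over all genes, 193 passed over all nuclei, against 1829 with DESeq2, 7196 without KI replicate 2 and 127 without WT replicate 1. In DG 1644 genes passed, against 3655 without the filter, 7896 without KI replicate 2 and 144 without WT replicate 1.

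The replicate numbers were checked for pairing by the correlation of deviations of same-numbered samples, which was 0.077 over 9761 genes. Some values still went with the number: choroid plexus markers in oligodendrocytes summed to 213 and 64.5 CPM in WT replicates 1 and 2, and to 237 and 144 CPM in KI. Subicular or cortical nuclei numbered 331 and 702 in WT and 448 and 879 in KI, whereas inhibitory nuclei numbered 780 and 756 against 618 and 874. What same-numbered samples share was not tested further. With a replicate block 5 members passed over all nuclei, 7 in CA1, 6 in CA3, 3 in DG and 2 in astrocytes, and over all genes 1955 passed over all nuclei (193 without the block), 2287 in CA1 (1280), 1374 in CA3 (392), 2376 in DG (1644) and 123 in astrocytes (31). With library totals 602 genes rose and 1289 fell in DG, against 821 and 823 with TMM factors, 593 and 673 in CA1 against 771 and 509, and 203 and 293 in inhibitory neurons against 267 and 124. For the class contrasts, 4845 genes passed higher and 2817 lower in astrocytes (4074 and 3666 with TMM factors), 3047 and 1362 in OPC (2429 and 2032) and 3603 and 8059 in neurons minus glia (6365 and 4846). For the KI effect in neurons minus glia the numbers were 103 and 213 (139 and 127). Low UMI counts limit astrocytes, OPC and microglia, where 27, 17 and 8 of the 33 members could be tested.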

Other observations

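Among the 34 genes of neighbouring steps, the KI effect differed between CA1 pyramidal and DG granule neurons for 6 at an adjusted p under 0.05 by edgeR's quasi-likelihood test, 2 with a higher and 4 with a lower fold change in CA1, where 9.95% of 18255 genes passed (5.74% positive, 4.22% negative). Scarb1 (log2 difference 1.10, adjusted p 3.80e-06 in edgeR's test) and Soat1 (0.65, 0.0251) were the higher ones, and Acsl6 (-0.72, 0.000495), Acsl3 (-0.54, 0.0260), Por (-0.49, 0.0304) and Tecr (-0.45, 0.0208) the lower ones. Of 10 alternatives Scarb1 passed under 10, Acsl6 under 9 (not without WT replicate 2, 0.0929), Soat1 under 7, Por and Tecr under 5 each and Acsl3 under 4. Without WT replicate 1 the adjusted p of the last 4 was 0.306 to 0.469, and without WT replicate 2 0.126 to 0.272. Por codes for the reductase that passes electrons to the P450 enzyme of lanosterol demethylation, and Tecr for the last reductase of fatty acid elongation. Between neurons and glia 1 of the 34 passed, Hsd17b12 (-0.70, adjusted p 0.00471 in edgeR's test), where 1.46% of 18255 genes did, so this count lies near the share of all genes. It did not pass without WT replicate 1 (0.224), WT replicate 2 (0.0680) or KI replicate 2 (-0.42, 0.181).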
